A study of Mus musculus with 16 samples.

Results

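AML246 cells sorted for high surface Cd11b at day 12 of doxycycline were compared with all viable cells of that day. The libraries were chosen by their titles and sort labels: 2 libraries of Cd11b-high viable cells (replicates A and B) and 2 of total viable cells (replicates A and B), which makes 4 of the 16 libraries of the series. AML246 cells come from a mouse acute myeloid leukaemia and were kept in medium with IL-3. Both groups had received doxycycline at 0.1 µg/mL for 12 days, which in this line restores the transcription factor PU.1. The labels give no genotype, number of clones or gate limits. They do not tell whether replicates came from different cultures, and the spread behind each p-value may therefore be technical. The other 12 libraries were total viable cells at days 0, 4 and 8 of doxycycline and at 4, 8 and 12 days after its withdrawal, with 2 libraries each. The total also contains the Cd11b-high cells, so each difference is that of a part against its whole, and the share of Cd11b-high cells in the total is not given.

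Cd11b is the alpha M integrin chain, encoded by Itgam, and pairs with the beta 2 chain on granulocytes and monocytes, where it binds complement fragments and adhesion ligands. PU.1, encoded by Spi1, drives the neutrophil and macrophage programmes together with C/EBP factors. GATA1 and GATA2 direct erythroid, megakaryocytic, mast cell, basophil and eosinophil genes, and GATA factors and PU.1 are known to oppose each other. Basophils and mast cells store proteases and histamine, eosinophils store cationic granule proteins, and neutrophils store antimicrobial proteins.

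The marker of the sort followed the labels. Itgam (Entrez 16409) stood at 884 and 940 CPM in the Cd11b-high libraries, against 719 and 670 CPM in the total libraries (CPM, read counts relative to a library's total, here scaled by TMM factors). Both Cd11b-high values lay above both total values, and the mean was 1.31 times that of the total. Itgam had a log2 fold of 0.38 (SE 0.05) with edgeR adjusted p = 0.00047 when the 4 libraries were fitted alone. It did not pass when all 16 libraries of the series were fitted together (log2 fold 0.39). Itgb2, its beta 2 partner, had 2033 and 2039 CPM in Cd11b-high cells, against 1934 and 1819 CPM in total cells, without passing the test. Spi1 stood at 229 and 244 CPM in Cd11b-high cells, against 226 and 219 CPM in total cells (log2 fold 0.08, SE 0.05, edgeR adjusted p = 0.54 in the fit of 4). Both Cd11b-high values of Spi1 lay above both total values, by a margin that did not pass.

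Replicates of the 4 libraries lay close together. Total counts were 23445353 and 21129129 in Cd11b-high cells, against 23387034 and 26509803 in total cells, in a series range of 12962801 to 26509803. The biological coefficient of variation (BCV, the relative spread between replicates beyond counting) was 5.11% in Cd11b-high cells and 2.76% in total cells, against 6.03% to 24.3% in the other 6 groups. The share of counts from mitochondrially encoded genes was 1.96% and 2.19% in Cd11b-high cells, against 1.93% and 2.03% in total cells. The 2 measured B cell markers summed to 2.31 and 1.67 CPM in Cd11b-high cells, against 1.6 and 1.32 CPM in total cells, and the 5 measured T and NK cell markers to 17.5 and 16.4 CPM against 19.0 and 19.1 CPM, most of it from Cd3g.

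**Figure D1:**
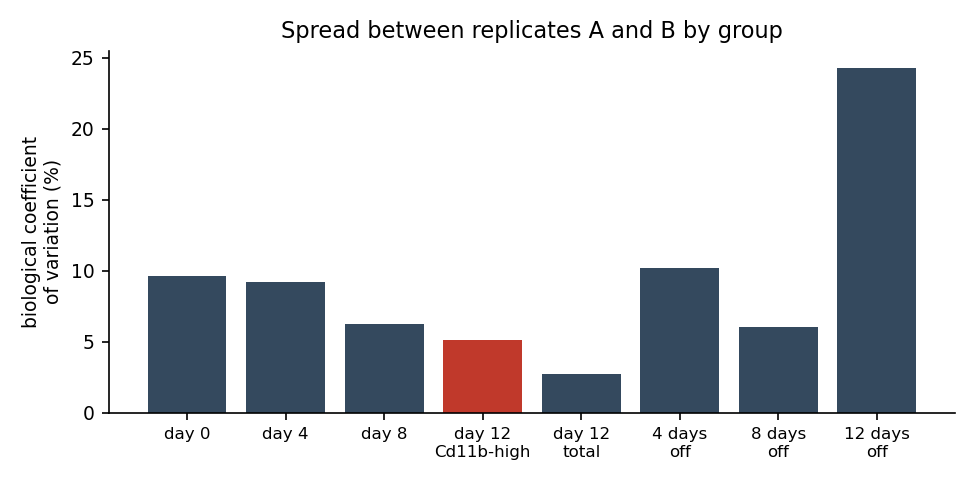
Spread between replicates A and B in each of the 8 groups (bars, biological coefficient of variation in percent, 2 libraries a group). Cd11b-high cells (red) and total cells at day 12 had the lowest values, 5.11% and 2.76%, and the libraries of 12 days off the highest, 24.3%.

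How many genes passed depended on where the spread was taken from. The fit of all 16 libraries, the main one, had a BCV of 10.9% with 8 residual degrees of freedom, and edgeR called 2 of 13652 genes (0.0146%) at an adjusted p under 0.05, both lower in Cd11b-high cells. The fit of the 4 libraries alone had a BCV of 4.05% with 2 residual degrees of freedom, and edgeR called 313 of 12917 genes (2.42%), with 155 higher (1.20%) and 158 lower (1.22%). The 735 other genes fell under its filter on low counts. In the fit of 16, 309 genes (2.26%) had an unadjusted p under 0.05. Except for Mcpt8 and Poln, each gene described as higher, lower or called below passed in the fit of 4 and not in the fit of 16, whose next lowest adjusted p was 0.103.

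The differences were small and uneven between directions. Genes called higher in Cd11b-high cells had a median log2 fold of 0.29 and a maximum of 0.75, so 0 exceeded a 2-fold change. Genes called lower had a median of −0.45, and 20 of 158 exceeded 2-fold. Of the genes called lower, 43 had a mean under 10 CPM over the 4 libraries, against 4 of the genes called higher. The libraries of the groups did not overlap for any called gene, while over all 13652 genes 2996 (21.9%) were higher and 2701 (19.8%) lower in both Cd11b-high libraries than in both total libraries.

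Genes of basophils and mast cells were lower in Cd11b-high cells, with Mcpt8 in front. Mcpt8 (Entrez 17231) encodes the basophil protease mMCP-8 and stood at 8.73 and 8.93 CPM in Cd11b-high cells, against 26.8 and 26.0 CPM in total cells. Its mean in Cd11b-high cells was 0.335 times that in total cells. It had the lowest p in the fit of 16 and the second lowest in the fit of 4 (log2 fold −1.58, SE 0.14, edgeR adjusted p = 0.00018 in the fit of 16, and −1.59, SE 0.09, edgeR adjusted p = 3.22e-08 in the fit of 4). Of the 16 genes on the basophil and mast cell list 11 were measured and 10 tested. Of these 7 were called lower and 0 higher, against 1.22% and 1.20% of all genes tested. By unadjusted p 1 was higher, Kit, and DESeq2 called 6, all lower. The median log2 fold of the list was −0.69, against −0.01 over all genes tested.

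The other members covered granule contents, receptors and a transcription factor. Cpa3, the mast cell carboxypeptidase, had 857 and 705 CPM in Cd11b-high cells, against 1183 and 1183 CPM in total cells (log2 fold −0.61, SE 0.08). Prss34, the basophil protease mMCP-11, was low throughout, at 3.88 and 3.70 CPM in Cd11b-high cells, against 5.75 and 7.11 CPM in total cells. Hdc, which makes histamine, had 121 and 121 CPM in Cd11b-high cells, against 150 and 151 CPM in total cells. In each of these the Cd11b-high libraries lay below both total libraries, and Prss34 lost its call without total replicate B (edgeR adjusted p = 0.25).

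Of the receptors on the list, 2 were called lower and Kit was not. Il1rl1, the receptor for IL-33, had 64.4 and 54.9 CPM in Cd11b-high cells, against 112 and 115 CPM in total cells (log2 fold −0.94, SE 0.06). Cd200r3, an activating receptor of basophils and mast cells, had 11.2 and 10.3 CPM in Cd11b-high cells, against 24.2 and 20.1 CPM in total cells (log2 fold −1.04, SE 0.11). Their means were 0.524 and 0.486 times those of total cells. Kit, the stem cell factor receptor, did not pass, at 350 and 332 CPM in Cd11b-high cells against 316 and 316 CPM in total cells. Il4, a cytokine of basophils, had 1.66 and 2.13 CPM in Cd11b-high cells, against 3.15 and 3.28 CPM in total cells, and did not pass (edgeR adjusted p = 0.065). Since these are bulk libraries, fewer cells of a type and less of a messenger per cell cannot be told apart.

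Eosinophil genes were lower as well. Of 10 measured members 7 were called lower and 0 higher, against 1.22% and 1.20% of all genes tested. By unadjusted p 1 was higher, Siglecf, and DESeq2 called 5, all lower. The median log2 fold was −0.31. Prg2, the major basic protein, had 2587 and 2702 CPM in Cd11b-high cells, against 3028 and 3414 CPM in total cells, and Prg3, its homologue, had 221 and 223 CPM against 276 and 321 CPM. Epx, eosinophil peroxidase, had 3831 and 4190 CPM in Cd11b-high cells, against 4704 and 5255 CPM in total cells. Per kilobase of gene length, the level of Prg2 was 3155 CPM in Cd11b-high cells and 3844 CPM in total cells, while that of Mcpt8 was 10.5 CPM in Cd11b-high cells and 31.4 CPM in total cells.

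Further eosinophil genes kept the direction. Ear1, an eosinophil ribonuclease with close paralogs whose reads could be split, had 61.8 and 52.5 CPM in Cd11b-high cells, against 88.9 and 91.7 CPM in total cells. Alox15, a lipoxygenase of eosinophils, had 233 and 237 CPM in Cd11b-high cells, against 313 and 314 CPM in total cells (log2 fold −0.42, SE 0.04). Il5ra, the IL-5 receptor chain, was also called lower, and Ear2 too, while Siglecf, an eosinophil lectin, did not pass and stood at 86.0 and 85.8 CPM in Cd11b-high cells against 80.3 and 78.2 CPM in total cells. Without total replicate B the count was 3, with Prg2, Epx, Il5ra and Ear2 losing theirs (edgeR adjusted p = 0.074 to 0.48). Prg3 lost its call without either Cd11b-high library (0.26 without A, 0.33 without B), and Il5ra without total replicate A (0.064).

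**Figure D2:**
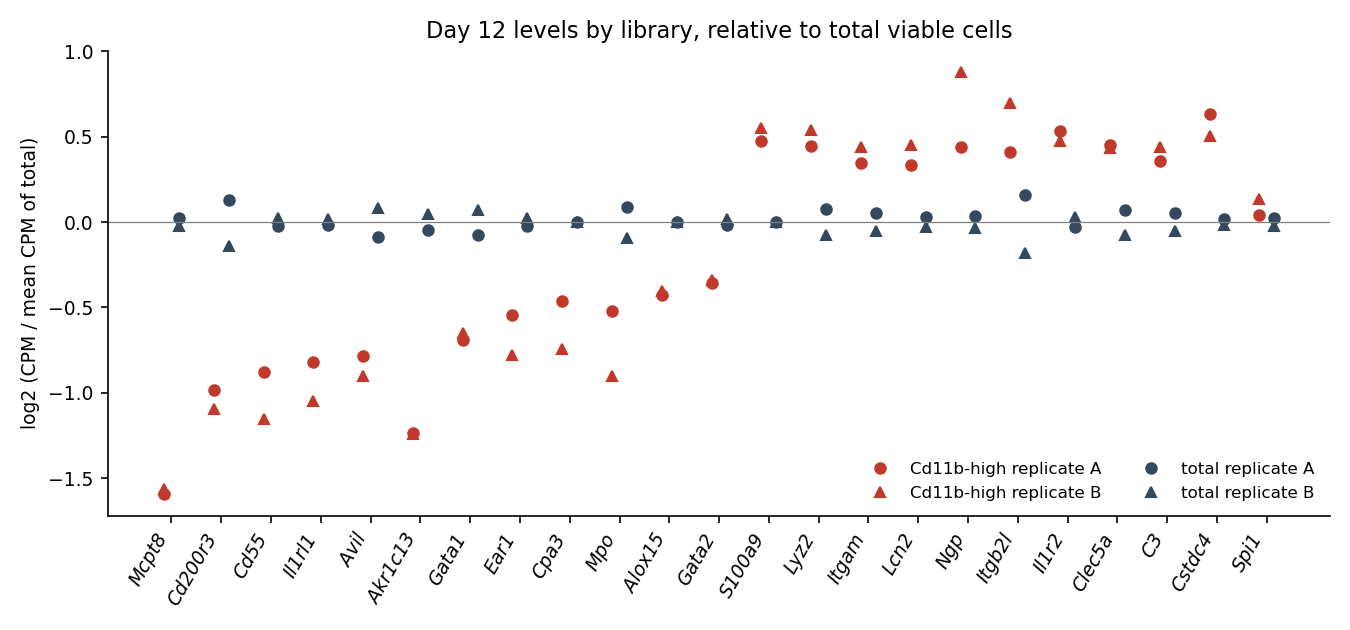
Level of 23 genes in each day 12 library as the log2 ratio of its CPM to the mean CPM of the 2 total libraries (vertical axis), Cd11b-high in red and total in dark blue, circles for replicate A and triangles for B. Mcpt8 lay lowest in the Cd11b-high libraries, Ngp in replicate B highest, and Spi1 close to 0.

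Gata1 and Gata2, the transcription factors of these lineages, were lower too. Gata1 had 27.6 and 28.5 CPM in Cd11b-high cells, against 42.4 and 46.9 CPM in total cells (log2 fold −0.68, SE 0.07, edgeR adjusted p = 3.43e-05 in the fit of 4). Gata2 had 408 and 413 CPM in Cd11b-high cells, against 517 and 529 CPM in total cells (log2 fold −0.36, SE 0.04). They were the 2 called among 34 haematopoietic transcription factors tested, whose median log2 fold was 0.02. More of the 34 were called without either Cd11b-high library, where the calls over all genes rose as well. The count held without either total library. Of the factors near Gata1 and Gata2 in function, Gfi1b had 16.3 and 17.1 CPM in Cd11b-high cells, against 18.7 and 18.6 CPM in total cells, and Klf1 had 1.20 and 1.47 CPM against 2.10 and 2.32 CPM, neither past the test. Cebpa, which encodes a C/EBP factor of granulocytes, had 95.8 and 98.6 CPM in Cd11b-high cells, against 94.7 and 81.6 CPM in total cells, and did not pass.

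The promoters of some of these genes hold the letters of a GATA site. The windows shown run from 250 bases before to 50 bases after the RefSeq transcription start, in the direction of the gene (GRCm38.p6), for Mcpt8, the gene called most often, and for 4 further called genes whose windows match. Capitals mark AGATAA or its reverse complement TTATCT. Mcpt8 lies at chr14:56085148-56085447 on the minus strand, Cpa3 at chr3:20242132-20242431 on the minus strand, Cd200r3 at chr16:44943428-44943727, the upstream Il1rl1 start at chr1:40429320-40429619 and Avil at chr10:127000459-127000758, the last 3 on the plus strand.
Mcpt8: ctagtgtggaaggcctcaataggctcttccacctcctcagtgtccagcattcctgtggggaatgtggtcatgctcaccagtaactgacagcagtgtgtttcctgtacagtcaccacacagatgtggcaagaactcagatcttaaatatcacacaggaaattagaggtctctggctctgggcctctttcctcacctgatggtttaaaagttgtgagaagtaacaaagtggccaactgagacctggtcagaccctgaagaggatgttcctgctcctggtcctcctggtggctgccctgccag
Cpa3: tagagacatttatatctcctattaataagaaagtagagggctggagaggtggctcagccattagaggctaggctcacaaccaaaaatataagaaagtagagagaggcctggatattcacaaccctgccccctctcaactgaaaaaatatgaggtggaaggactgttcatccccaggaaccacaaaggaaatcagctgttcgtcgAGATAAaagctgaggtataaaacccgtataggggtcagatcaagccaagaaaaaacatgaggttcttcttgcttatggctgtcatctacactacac
Cd200r3: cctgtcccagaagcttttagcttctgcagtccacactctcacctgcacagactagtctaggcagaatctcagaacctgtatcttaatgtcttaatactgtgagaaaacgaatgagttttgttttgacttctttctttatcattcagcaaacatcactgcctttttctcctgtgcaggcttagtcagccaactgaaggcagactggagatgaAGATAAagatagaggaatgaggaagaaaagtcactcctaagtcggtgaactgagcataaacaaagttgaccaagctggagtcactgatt
Il1rl1: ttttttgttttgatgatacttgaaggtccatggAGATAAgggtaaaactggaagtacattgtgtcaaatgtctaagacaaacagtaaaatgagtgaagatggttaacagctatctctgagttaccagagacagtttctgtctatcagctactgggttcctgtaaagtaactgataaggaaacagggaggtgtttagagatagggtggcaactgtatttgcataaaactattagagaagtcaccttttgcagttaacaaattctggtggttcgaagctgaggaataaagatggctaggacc
Avil: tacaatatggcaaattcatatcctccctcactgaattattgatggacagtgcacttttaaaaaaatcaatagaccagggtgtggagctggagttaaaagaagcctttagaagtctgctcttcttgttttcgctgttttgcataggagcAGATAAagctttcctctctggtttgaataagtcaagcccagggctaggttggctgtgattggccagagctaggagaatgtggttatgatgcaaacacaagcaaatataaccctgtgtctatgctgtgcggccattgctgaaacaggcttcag
The match began 46 bases before the start in Cpa3, 39 in Cd200r3, 217 in the Il1rl1 window shown and 102 in Avil, and the Mcpt8 window held none. The window of a second Il1rl1 start, at chr1:40439379-40439678, is not shown and held TTATCT from 103 bases before that start.

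AGATAA was searched on both strands over all called genes with a RefSeq window. It was in the windows of 23 of 116 genes called lower (19.8%) and 10 of 128 called higher (7.81%), against 786 of 9824 genes tested (8.00%) and 12.7% of all 27025 genes in the promoter table. GAGGAAGT, a PU.1 site, was in 7 of 116 lower genes (6.03%) and 5 of 128 higher genes (3.91%), against 3.92% of genes tested and 3.69% of the table. TTGCNNAA, a C/EBP site, was in 21 of 116 lower genes (18.1%) and 14 of 128 higher genes (10.9%), against 10.1% of genes tested and 12.2% of the table. A match describes letters and not a bound site, and no test was run on these shares. Besides the genes shown, the lower genes with AGATAA included Prss34, Il5ra, Adora3, an adenosine receptor of mast cells, and Slc18a2, the vesicle transporter for histamine, the last of which was chosen after its values were seen. The 23 also held Ccr2, Fgf3, Crip1, Arsb, Aldh9a1, Hacd3 and P2rx1, among others. Hdc, Gata1, Gata2, Prg2, Prg3, Epx, Ear1, Ear2 and Alox15, also called lower, were not among the 23, for lack of a match or of a window. Slc18a2 lost its call without Cd11b-high replicate B, total replicate A or total replicate B (edgeR adjusted p = 0.084 to 0.42).

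Other genes with large falls were mixed in function. Cd55, which protects cells from complement, had 24.9 and 20.6 CPM in Cd11b-high cells, against 45.0 and 46.6 CPM in total cells (log2 fold −1.02, SE 0.08, edgeR adjusted p = 1.57e-06 in the fit of 4). Avil, an actin-binding protein of the villin family, had 37.95 and 34.9 CPM in Cd11b-high cells, against 61.5 and 69.0 CPM in total cells. Akr1c13, an aldo-keto reductase with close paralogs, had 11.9 and 11.9 CPM in Cd11b-high cells, against 27.1 and 29.0 CPM in total cells. The 10 largest falls above 10 CPM also held Adora3, Angpt1, a ligand of the Tie2 receptor, Rnase12 and Tmem64. Pga5, which encodes a pepsinogen and was chosen after its values were seen for its lowest p in the fit of 4, had 1.94 and 1.93 CPM in Cd11b-high cells, against 11.1 and 11.6 CPM in total cells (log2 fold −2.56, SE 0.15).

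A few abundant genes outside blood lineage lists were lower. Cyp11a1, which starts steroid synthesis from cholesterol, had 525 and 500 CPM in Cd11b-high cells, against 670 and 669 CPM in total cells (log2 fold −0.39, SE 0.04). Fgf3, a growth factor, had 214 and 223 CPM in Cd11b-high cells, against 266 and 281 CPM in total cells. Csf1, the macrophage growth factor, had 65.1 and 63.3 CPM in Cd11b-high cells, against 85.7 and 88.9 CPM in total cells, and was the one called in the fit of 4 among 14 cytokine and chemokine genes. More of those 14 were called without either Cd11b-high library, where the calls over all genes rose as well. The groups did not overlap for Cyp11a1, Fgf3 or Csf1, as was the case for every called gene.

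Poln, a DNA polymerase, was the second gene called in the fit of 16. It had 1.11 and 1.62 CPM in Cd11b-high cells, against 4.51 and 4.76 CPM in total cells (log2 fold −1.77, SE 0.26, edgeR adjusted p = 0.044 in the fit of 16). Its gene body (chr5:34007179-34169526, GRCm38.p6, the mm10 assembly) contains Haus3, so reads in the shared stretch could go to either. Haus3, a subunit of a spindle complex, had 156 and 146 CPM in Cd11b-high cells, against 144 and 152 CPM in total cells, and overlapped between groups. The Poln call was lost without any 1 of the 4 libraries, while Mcpt8 kept its call (edgeR adjusted p = 0.0049 to 0.020).

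Genes of neutrophil granules and maturation were higher in Cd11b-high cells. Of 15 measured members 9 were called higher and 0 lower, against 1.20% and 1.22% of all genes tested. By unadjusted p 0 were lower, and DESeq2 called 6, all higher. All 15 had a positive log2 fold, against 6141 of the 12917 genes tested, and the median was 0.47. S100a9, a subunit of calprotectin, had 510 and 537 CPM in Cd11b-high cells, against 367 and 367 CPM in total cells (log2 fold 0.50, SE 0.05, edgeR adjusted p = 8.95e-06 in the fit of 4). Lcn2, a siderophore-binding protein of secondary granules, had 219 and 237 CPM in Cd11b-high cells, against 177 and 170 CPM in total cells. Ngp, another secondary granule protein, had 20.4 and 27.7 CPM in Cd11b-high cells, against 15.5 and 14.7 CPM in total cells. The replicates differed more for Ngp than for S100a9, though both lay above the total libraries.

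Among the receptors on the list, Il1r2 and Csf3r were called and Cxcr2 was not. Il1r2, the decoy receptor for IL-1, had 24.2 and 23.3 CPM in Cd11b-high cells, against 16.5 and 17.1 CPM in total cells (log2 fold 0.49, SE 0.08). Csf3r, the G-CSF receptor, had 186 and 202 CPM in Cd11b-high cells, against 172 and 158 CPM in total cells, close to the threshold (edgeR adjusted p = 0.0499). Cxcr2, a chemokine receptor of neutrophils, overlapped between the groups (log2 fold 0.01, edgeR adjusted p = 0.99). Cd177, Itgb2l, Olfm4 and S100a8 were the remaining called members. Ltf, which encodes lactoferrin, had 9.46 and 8.93 CPM in Cd11b-high cells, against 9.76 and 8.55 CPM in total cells, and Padi4, a histone-modifying enzyme of neutrophils, had 140 and 147 CPM against 140 and 144 CPM. Ltf and Padi4 overlapped between the groups. The count of 9 fell to 3 without total replicate B, where Ngp, Csf3r, Cd177, Itgb2l, Olfm4 and S100a8 no longer passed (edgeR adjusted p = 0.11 to 0.76), and to 6 without Cd11b-high replicate B, where Cd177, Itgb2l and S100a8 did not (0.058 to 0.15). Ngp and Csf3r also missed it without total replicate A (0.078 and 0.060), and S100a8 without Cd11b-high replicate A (0.12).

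Azurophil granule and monocyte genes moved in both directions. Mpo, myeloperoxidase, had 21.1 and 16.2 CPM in Cd11b-high cells, against 32.2 and 28.4 CPM in total cells (log2 fold −0.70, SE 0.11), and Prtn3, proteinase 3, had 137 and 140 CPM against 123 and 111 CPM (log2 fold 0.24, SE 0.06). They were the 2 called of 10 azurophil genes, against 2.42% of all genes tested. Prtn3 lost its call without total replicate B. Lyz2, the lysozyme of granulocytes and macrophages, had 458 and 489 CPM in Cd11b-high cells, against 354 and 319 CPM in total cells (log2 fold 0.48, SE 0.05). Csf1r, the macrophage growth factor receptor, was low in both groups, at 15.3 and 17.4 CPM in Cd11b-high cells against 12.7 and 11.7 CPM in total cells, and lost its call without Cd11b-high replicate B (edgeR adjusted p = 0.088), total replicate A (0.073) or total replicate B (0.46).

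Of the monocyte and macrophage genes, Ly6c1, Ly6c2 and Ccr2 were the 3 called lower. Ly6c2, a surface antigen with a close paralog in Ly6c1, had 1049 and 965 CPM in Cd11b-high cells, against 1348 and 1407 CPM in total cells (log2 fold −0.46, SE 0.05). Ccr2, a chemokine receptor, had 28.1 and 27.4 CPM in Cd11b-high cells, against 34.2 and 35.4 CPM in total cells, and lost its call without total replicate A (edgeR adjusted p = 0.071) or B (0.24). Of 12 monocyte and macrophage genes tested 2 were called higher and 3 lower, against 1.20% and 1.22% of all genes tested. Their median log2 fold was −0.02. Adgre1, which encodes F4/80, overlapped between groups, at 42.3 and 41.1 CPM in Cd11b-high cells against 42.3 and 43.1 CPM in total cells.

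Textbook PU.1 targets were higher in part. Of 22 tested 6 were called higher and 0 lower, against 1.20% and 1.22% of all genes tested, with a median log2 fold of 0.06. Of the 6, 2 are given above, Itgam and Lyz2. Clec5a, a lectin receptor that signals through DAP12, had 71.2 and 70.3 CPM in Cd11b-high cells, against 54.8 and 49.4 CPM in total cells (log2 fold 0.43, SE 0.06). Ptprc, which encodes CD45, had 82.0 and 83.8 CPM in Cd11b-high cells, against 68.1 and 65.4 CPM in total cells. Csf1r and Csf3r were the remaining called targets, and without total replicate B the count fell to 3, Ptprc among the losses (edgeR adjusted p = 0.14). Ncf1, a subunit of the phagocyte oxidase, had 448 and 475 CPM in Cd11b-high cells, against 427 and 418 CPM in total cells, and did not pass (edgeR adjusted p = 0.26).

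Receptor and innate genes gave a few further calls. Among 27 cytokine receptors 5 were called higher and 4 lower, against 1.20% and 1.22% of all genes tested, with a median of 0.01. The higher ones were Il1r2, Csf1r, Csf3r, Tnfrsf1a, a TNF receptor, and Il13ra1, a chain of the IL-13 receptor. DESeq2 called 2 of the 27 higher and 2 lower. Il13ra1 missed the threshold with DESeq2 (adjusted p = 0.45), limma-voom (adjusted p = 0.059) and library size alone (edgeR adjusted p = 0.060). Its log2 fold was 0.40 to 0.57 with 1 library left out. Of the 4 lower ones 3 were Il1rl1, Il5ra and Csf2rb2, the mouse-specific beta chain for IL-3, whose reads could be split with its close paralog Csf2rb. The fourth, Il9r, the IL-9 receptor, stood at 0.14 and 0.15 CPM in Cd11b-high cells, against 0.73 and 0.84 CPM in total cells, where few reads carry the value. Without total replicate A or B, 1 receptor was called higher and 1 lower. Among 21 Fc receptor and ITAM genes, Trem1 and Clec4e, activating receptors of neutrophils and macrophages, were called higher, and neither passed without total replicate A or B (edgeR adjusted p = 0.064 to 0.70). C3, the central complement component, had 124 and 131 CPM in Cd11b-high cells, against 100.1 and 92.9 CPM in total cells (log2 fold 0.39, SE 0.06).

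Programmes outside the lineage lists gave few calls in the fit of 4, in which 2.42% of all genes were called. Of 30 mitosis genes, 40 DNA replication genes and 18 genes of G1 and cell cycle inhibition, 0 were called in the fit of 4, with median log2 folds of 0.0014, −0.0030 and −0.04, and in the fit of 16 edgeR called 0 as well. By unadjusted p under 0.05 in the fit of 4, 6 of these 88 genes passed (6.82%), against 12.9% of all genes, and DESeq2 and limma-voom called 0. These counts of 0 held without either total library and not without either Cd11b-high library, where the calls over all genes rose as well. Mki67, the proliferation marker, had 1099 and 891 CPM in Cd11b-high cells, against 774 and 803 CPM in total cells. It did not pass (edgeR adjusted p = 0.13), and its length of 10075 bases puts it in the longest 10% of genes, described below. Also at 0 calls were 23 interferon-stimulated genes, 8 of MHC class II, 20 immediate-early and heat-shock genes, 5 phagocyte oxidase subunits and 13 mitochondrially encoded genes, of which 10 of 69 passed by unadjusted p (14.5%, a share near that of all genes) and 0 by DESeq2 or limma-voom. Over these 69 genes too the count was not 0 without either Cd11b-high library, nor without total replicate A. Without Cd11b-high replicate A the calls were higher, most of them immediate-early and heat-shock genes. Without Cd11b-high replicate B or total replicate A they were lower. Of 32 lysosomal genes, 2 were called lower, Arsb, an arylsulfatase, and Ctsh, a cathepsin. Both missed the threshold without total replicate B, and a higher call came in without Cd11b-high replicate A. Of 34 ribosome biogenesis genes 1 was called lower, Noc4l, which missed the threshold without total replicate A or B. A negative fold was seen in 25 of the 34, against 6776 of the 12917 genes tested, with a list median of −0.06. More of that list were called without either Cd11b-high library.

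**Figure D3:**
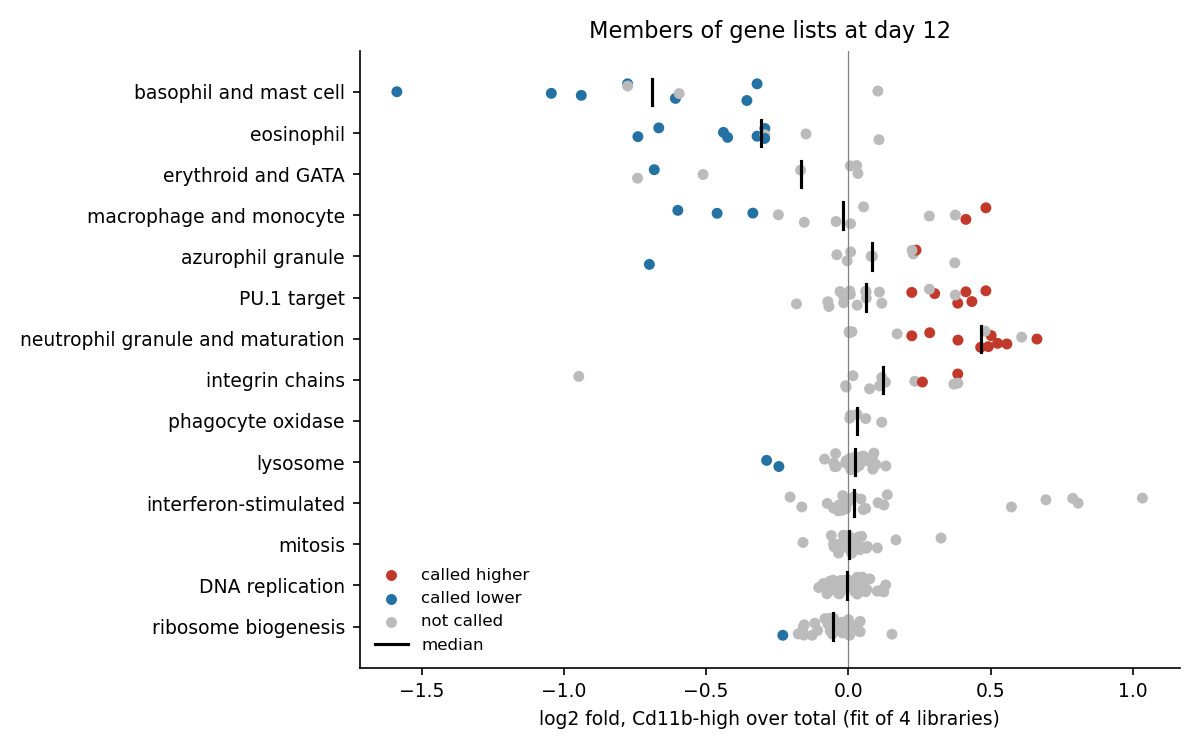
Log2 fold of Cd11b-high over total in the fit of 4 libraries (horizontal axis) for each tested member of 14 gene lists (rows). Points are genes, red where called higher, blue where called lower and grey where not called, and black bars are list medians, which ran from −0.69 for basophil and mast cell genes to 0.47 for neutrophil genes.

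Gene length moved with the genes called higher. Across 9151 genes of at least 10 CPM, the log2 ratio of Cd11b-high over total had a Spearman correlation of 0.36 with gene length, given as a description since genes share their libraries. It was 0.31 for Cd11b-high replicate A and 0.30 for replicate B against the mean of the total libraries. The ratio of replicate A to B correlated with length by 0.03 within Cd11b-high cells and 0.09 within total cells of day 12. Within the other groups it was 0.03 at day 0, −0.39 at day 4 and −0.19 at day 8. At 4, 8 and 12 days off it was −0.40, −0.26 and −0.75. Trends larger in size than the 0.36 of the sort comparison thus also arose between replicates of 1 group. The median log2 fold was −0.06 in the shortest 10% of genes and 0.08 in the longest 10%.

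The longest 10%, from 6308 to 83437 bases, held 82 of the 151 genes called higher at 10 CPM or more (54.3%) and 8 of the 115 called lower. Abca13, a lipid transporter gene of 16011 bases, had 498 and 422 CPM in Cd11b-high cells, against 309 and 301 CPM in total cells. Kmt2c, a histone methyltransferase gene of 16820 bases, had 228 and 184 CPM in Cd11b-high cells, against 146 and 143 CPM in total cells, and lost its call without total replicate B (edgeR adjusted p = 0.056). Zfhx3, Lyst and Nfat5 were further long genes with calls. With the length trend of each library removed, an alternative chosen after seeing the data, edgeR called 103 genes higher (0.797%) and 156 lower (1.21%), of which 79 and 128 were also called without it, and 15 genes of the longest 10% were higher. Nfat5 was among the genes that no longer passed, with a log2 fold of 0.14 (edgeR adjusted p = 0.17). How far length had a part in the other calls was not tested.

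The counts of several lists were also taken with the length trend removed. The basophil and eosinophil lists stayed at 7 lower each and the PU.1 targets at 6 higher, and the neutrophil list had 8 higher, S100a8 being the member that no longer passed, with a log2 fold of 0.59 there against 0.47 as fitted (edgeR adjusted p = 0.20). The haematopoietic transcription factors had 3 lower in place of 2, and the cytokine and chemokine genes 2 higher in place of 0. After that removal 23 of 119 lower genes with a window held AGATAA (19.3%), and 8 of 79 higher genes did (10.13%). TTGCNNAA was in 16 of 79 higher genes (20.3%) and 19 of 119 lower genes (15.97%), against 10.1% of genes tested. Without the removal TTGCNNAA was in 14 of 128 higher genes and 21 of 116 lower genes.

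**Figure D4:**
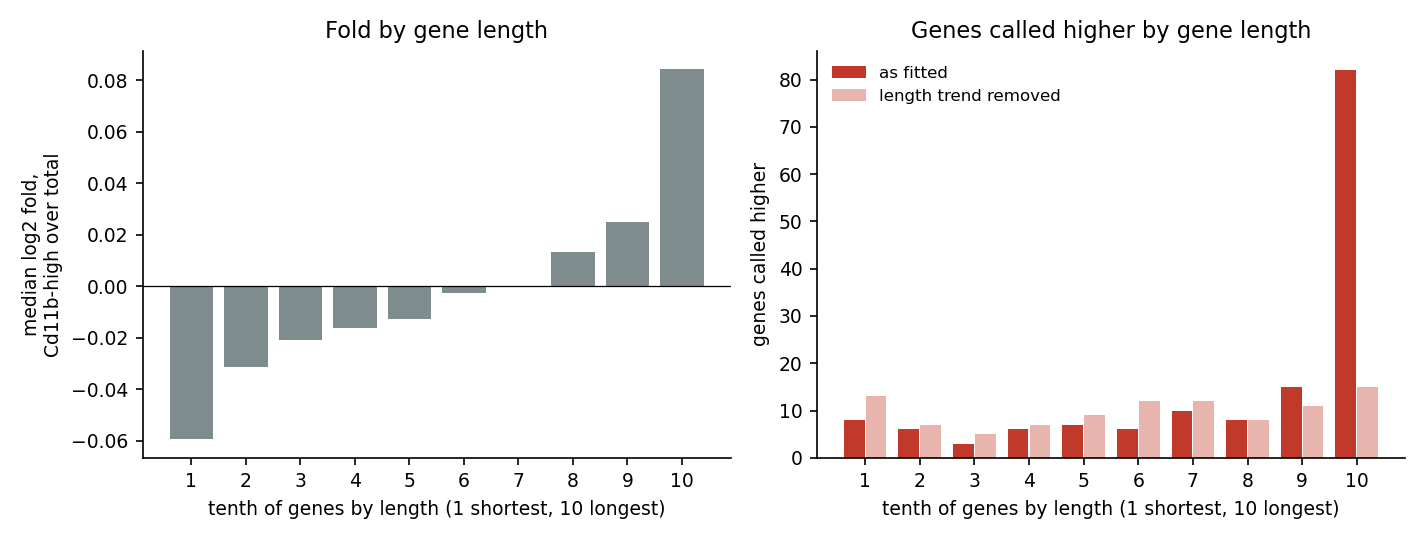
Left, median log2 fold of Cd11b-high over total in 10 equal parts of 9151 genes by length (1 shortest, 10 longest). Right, genes called higher per part in the fit of 4, as fitted (dark) and with the length trend removed (light); the longest had 82 as fitted and 15 after removal.

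The doxycycline course supplied libraries outside the sort comparison. Between day 8 and day 4, a comparison added after seeing the data, edgeR called 926 of 13652 genes higher (6.78%) and 977 lower (7.16%) at day 8 in the fit of 16. Of the 158 genes lower in Cd11b-high cells 64 were higher at day 8 than at day 4 (40.5% of the sort calls, 6.91% of the genes higher at day 8) and 5 were lower. Of the 155 genes higher in Cd11b-high cells 37 were lower at day 8 than at day 4 (23.9% of the sort calls, 3.79% of the genes lower at day 8) and 2 were higher. Genes low in the sorted cells were thus more often among those that rose between days 4 and 8 than all genes were (40.5% against 6.78%), and genes high in them among those that fell (23.9% against 7.16%), which is given as a description. Leaving out 1 of the 4 libraries of days 4 and 8 at a time gave 46 to 55 in place of 64. In place of 37 it gave 21 without day 8 replicate A or without day 4 replicate B, 24 without day 8 replicate B and 30 without day 4 replicate A.

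The marker genes show the course. Mcpt8 had 19.9 and 17.6 CPM at day 0, 4.19 and 3.91 CPM at day 4 and 11.8 and 10.7 CPM at day 8. Cpa3 had 1978 and 1679 CPM at day 0, 256 and 299 CPM at day 4 and 696 and 722 CPM at day 8. Prg2 had 195 and 108 CPM at day 0, 35.1 and 23.7 CPM at day 4 and 1126 and 1170 CPM at day 8. Of these 3 days the genes were lowest at day 4. For Mcpt8, Cpa3 and Prg2 the day 12 Cd11b-high libraries lay nearer to day 8 than the total libraries did. S100a9 had 4.19 and 9.81 CPM at day 0, 1586 and 1170 CPM at day 4 and 545 and 470 CPM at day 8. Its Cd11b-high level of 510 and 537 CPM lay within the range of day 8. Lyz2 was also nearer to day 8 (604 and 553 CPM) in Cd11b-high than in total cells. Il1r2, Lcn2 and Olfm4, also called higher, were nearer to day 8 in total than in Cd11b-high cells. Their day 8 values were 16.55 and 17.35 CPM, 189.9 and 202.4 CPM, and 3844 and 3545 CPM.

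Set against day 0, genes from both directions were mostly changed by day 8. Of the 155 genes higher in Cd11b-high cells 112 (72.3%) were higher at day 8 than at day 0 and 4 were lower, while edgeR called 27.0% of all genes higher. Of the 158 lower genes 106 (67.1%) were lower at day 8 than at day 0 and 17 were higher, while 30.2% of all genes were called lower. With the longest 10% left out, 57 of 70 higher genes (81.4%) were higher at day 8 than at day 0, and 33 of 70 (47.1%) lower than at day 4. The mean at day 0 was at or above that of day 12 total cells for 89 of the 158 lower and 20 of the 155 higher genes. That count was not taken over all genes, so no share stands beside it.

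**Figure D5:**
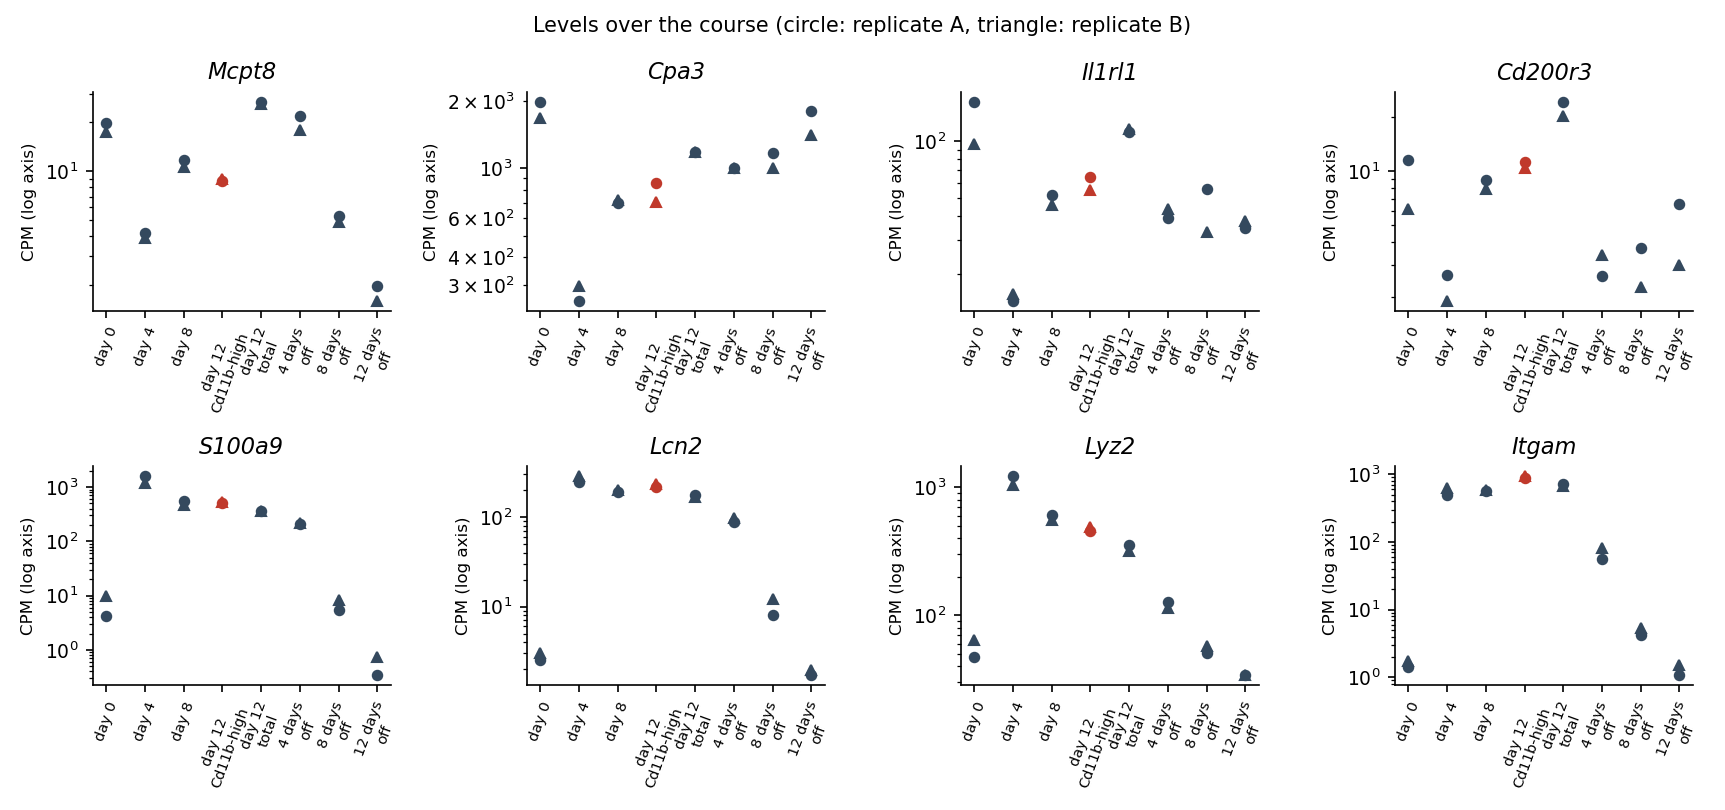
CPM (log axis, each panel its own scale) of 8 genes in every library over the course, circles for replicate A and triangles for B, with the Cd11b-high libraries in red left of the total libraries of day 12. Mcpt8, Cpa3, Il1rl1 and Cd200r3 dipped at day 4 and were lower in Cd11b-high than in total cells, while S100a9, Lcn2 and Lyz2 peaked at day 4 and were higher in Cd11b-high cells.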

How the data were processed

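Total RNA of FACS-sorted AML246 cells was sequenced on an Illumina NextSeq500, per the labels' protocols. The deposited values are whole-number read counts per Entrez gene, with a gene length beside each, per the file headers. The tools named in the submitters' processing notes are featureCounts, edgeR and limma, with the mm10 build and no versions. The aligner and the strand setting are not given in the sources used here. Each of the 13652 listed genes exceeds 0.5 CPM in 3 or more libraries, and 13216 matched a symbol in a GRCm38.p6 table. Genes that are not listed were not analysed here.

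Counts were fitted with edgeR 4.0.16 in R 4.3.3 (TMM, filterByExpr, robust quasi-likelihood F test, two-sided, Benjamini-Hochberg over all genes tested, called at an adjusted p under 0.05). The main fit held all 16 libraries with 1 mean per group, and a second fit held the 4 day 12 libraries alone. DESeq2 1.42.0 and limma 3.58.1 (voom) were alternatives, beside other size factors and filters, a replicate block, libraries left out in turn and removal of each library's length trend, and the scripts were tested on simulated data. The replicate letters are not said to pair libraries, so no block was used. Lists were summarised by counts and medians, with no set test.

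The 4 libraries and the 29 gene lists were chosen with earlier results of these data known. Genes were named by rule: Spi1, Itgam and Mcpt8, every call of the main fit, the 10 largest rises and falls of the second fit at 10 CPM or more, its 5 lowest p in each direction at 100 CPM or more, and the 3 genes of lowest p in each list. Other list members, and the overlapping gene Haus3, were named after their values were seen.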

Additional observations from a re-analysis of the deposited data

How the results depend on the processing

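The fit of 16 called 2 genes, and 1 (Mcpt8) with library size alone, with a filter at a mean of 1 CPM, with limma-voom, with dispersions that were not robust, and without any 1 of the 4 libraries (1 to 1). DESeq2 called 11, all lower. With the libraries of 12 days off left out, chosen after seeing the data, it was 8, with 1 higher (Zfhx3) and 7 lower. Mcpt8 was called in every setting tried. The fit of 4 called 313, and 167 with DESeq2 (94 higher, 73 lower). Without 1 library it called 93 to 794: 627 without Cd11b-high replicate A, 794 without Cd11b-high replicate B, 178 without total replicate A and 93 without total replicate B, with 1 residual degree of freedom, the lone library being assumed to vary like the other group. Library size alone moved its split to 123 higher and 162 lower. Day 8 against day 4, itself chosen after seeing the data, called 1903, and 590 to 1217 without 1 library; library size alone gave 749 higher and 1201 lower. Day 8 against day 0 stayed within 1.5 times of 7819, with 3405 higher and 4459 lower by library size alone and 3865 and 3676 by DESeq2. The cause of these changes was not tested.

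With the replicate letter as a block, the fit of 16 called 3 genes and the fit of 4 called 381. Deviations of A from B in Cd11b-high and total cells correlated by 0.12 over 9151 genes, but the labels do not pair the letters. Of 62 named calls of the fit of 4, 0 reversed under any setting. Under RLE factors and under the block 62 kept their call, with DESeq2 46 of 61, with library size alone 58, with the length trend removed 60 and without total replicate B 36. The median of basophil and mast cell genes was −0.61 to −0.78 without 1 library, that of eosinophil genes −0.29 to −0.39 and that of neutrophil genes 0.30 to 0.47. Of the 158 genes called lower, 43 lay under 10 CPM, where few reads carry the value.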
